A study of Mus musculus with 2 samples.

Results

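Transcripts of 10 genes of TGF-beta and activin signalling were followed in cells of the mouse digit amputated through the middle phalanx (P2). They were the ligand genes *Tgfb1*, *Tgfb2*, *Tgfb3* and *Inhba*, the receptor genes *Tgfbr1*, *Tgfbr2* and *Tgfbr3*, the latent binding protein genes *Ltbp1* and *Ltbp2*, and *Tgfbi*, a matrix gene named for its induction by TGF-beta. The genes were chosen by their symbols, and all 10 were listed once among the 33696 genes of both feature lists. A further 69 genes of the pathway were read from a list by role. Both conditions came from neonatal ICR mice, an outbred strain, with no engineered allele given. Digits were amputated at postnatal day 3, a microcarrier bead was implanted at postnatal day 7, and the tissue distal to the stump was collected 24 h later, at postnatal day 8, after the surrounding epithelium had been removed. The bead carried either FGF8 at 500 ng/µl or 0.1% bovine serum albumin (BSA), the control protein. Each condition was 1 pool of 20 digits from 5 mice of both sexes and 1 single-cell library, so treatment, pool of animals and library cannot be told apart, and no test across samples was possible.

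TGF-beta ligands are secreted in a latent form, bound to their own propeptide. Some latent TGF-beta binding proteins bind this form and anchor it in the matrix. Whether the *Ltbp2* product does so was not examined. Once released, the ligands bring together the receptors encoded by *Tgfbr2* and *Tgfbr1*, which phosphorylate SMAD2 and SMAD3, while betaglycan, encoded by *Tgfbr3*, presents them. Activin A, a dimer of the *Inhba* product, acts through other receptors (*Acvr2a*, *Acvr2b*, *Acvr1b*) on the same SMAD proteins and is bound and neutralized by follistatin (*Fst*). In limb tissue the pathway is known for its part in wound closure, scar formation, tendon and cartilage growth.

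In this assay each captured transcript carries a cell barcode and a unique molecular identifier (UMI), and the deposited values are UMI counts. There were 3703 barcodes with 67739460 UMIs for BSA and 7249 barcodes with 124889213 UMIs for FGF8, and 6 barcode sequences occurred in both. Filtering to between 200 and 7500 genes per cell, with mitochondrial UMIs below 15%, left 3252 BSA cells with a median of 15377 UMIs and 6715 FGF8 cells with a median of 12251. The pools differed in sex: of the cells that could be called from *Xist* and Y-linked transcripts, 79.3% were female in the BSA library and 24.6% in the FGF8 library. Some ratios of the ligand, receptor and latent binding protein genes and of *Tgfbi* are therefore also given for each sex separately. For the further genes of the pathway, only counts of genes are given by sex, not single ratios. Where a ratio is given for all cells only, the part of sex in it was not tested.

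Cells were clustered without the 10 genes and the pathway list and were named from marker lists. Fibroblast-like cells, in which all 8 fibroblast markers were detected, numbered 1511 in the BSA library and 2900 in the FGF8 library. They were re-clustered into subclusters 0 to 5. Subcluster 0 was led by *Spp1*, *H1f5* and *Hmga2*, subcluster 1 by *Nrg1* and *Zfp536*, subcluster 2 by *Lpl* and *Dlk1*, and subcluster 4 by *Corin* and *Sox18*. Subcluster 3 was tenocyte-like, led by *Comp* and *Mgp*. Subcluster 5 was led by *Rab37*, *Col22a1* and *Ackr2* and held only 6 BSA and 25 FGF8 cells. The other named types ranged from 472 and 891 macrophage-like cells to 48 and 11 lymphatic endothelial-like cells, in the order BSA and FGF8. Keratinocyte-like cells (121 and 132) were present although the epithelium had been removed.

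Levels are given as CPM, the UMIs of a gene per 1000000 UMIs of the cells named, and conditions are compared as the log2 ratio of the FGF8 library over the BSA library with an exact conditional 95% interval. The kit captures transcripts by their 3′ end, and CPM was not adjusted for gene length. Whether gene length entered the levels was not tested. All intervals cover counting error only, not the spread between animals. Those of CPM and of ratios also leave out the spread between cells.

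Fibroblast-like cells held the largest share of the UMIs of each of the 4 ligand genes. For *Tgfb1* that share was 44.2% in the BSA library and 47.9% in the FGF8 library, while its CPM was higher in immune, vascular and chondrocyte-like cells. In the BSA library its level was 209 CPM in neutrophil-like, 185 in macrophage-like, 154 in mast-like, 154 in lymphatic endothelial-like, 134 in endothelial-like and 105 in chondrocyte-like cells, against 45.9 in fibroblast-like cells. In the FGF8 library the same types stood at 148, 163, 175, 187, 115 and 148 CPM, against 43.3. The intervals of the leading 4 types overlapped between neighbours in both libraries, while macrophage-like cells lay clear of endothelial-like cells in both. *Tgfb2* was highest in chondrocyte-like cells in both libraries: 609 CPM (BSA) and 759 CPM (FGF8) in chondrocyte-like cells, with no overlap with the next type, fibroblast-like cells at 135 and 111 CPM. Chondrocyte-like cells were 1.69% and 2.04% of the kept cells and held 15.3% and 21.2% of all *Tgfb2* UMIs.

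*Tgfb3* was highest in fibroblast-like cells, at 70.9 CPM in the BSA library and 45.5 in the FGF8 library, followed by smooth muscle or pericyte-like cells at 31.9 and 43.4. The intervals of these types were apart in the BSA library and overlapped in the FGF8 library. *Inhba* was highest in chondrocyte-like cells (137 and 464 CPM), then in fibroblast-like cells (58.4 and 146) and in smooth muscle or pericyte-like cells (27.4 and 46.7). Fibroblast-like cells, being more numerous, held 83.2% and 81.9% of all *Inhba* UMIs. Macrophage-like cells were at 2.23 and 8.21 CPM. After each cell had been thinned to 2000 UMIs, 1.67% of FGF8 macrophage-like cells had an *Inhba* UMI, the same share as among erythroid-like cells (1.67%), which should lack the transcript. The median depths before thinning were 9635 and 6970.5 UMIs. The FGF8 share is therefore read as no higher than background, and the source of these UMIs was not tested.

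The receptor genes were more widely spread. *Tgfbr1*, the signalling type I receptor, was highest in neutrophil-like cells at 227 CPM (BSA) and 194 CPM (FGF8), apart from the next type, mast-like cells at 112 and 84.2 CPM. Fibroblast-like, macrophage-like, endothelial-like and Schwann-like cells lay between 52.1 and 76.5 CPM over both libraries. *Tgfbr2*, the type II receptor that binds the ligand, was highest in endothelial cells: lymphatic endothelial-like cells had 295 and 583 CPM, the second value from 11 cells, and endothelial-like cells had 253 and 215 CPM. Fibroblast-like cells followed at 196 CPM in the BSA library and stood at 136 in the FGF8 library, where Schwann-like cells (161 CPM) were above them. With each cell weighted equally, endothelial-like cells fell below fibroblast-like cells in the BSA library, at 185 against 201 CPM. In the FGF8 library they stayed above, at 265 against 158 CPM. *Tgfbr3* was highest in Schwann-like cells (411 and 373 CPM) and fibroblast-like cells (376 and 302 CPM), and was at 21.3 and 27.6 CPM in macrophage-like cells.

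The latent binding protein genes marked the fibroblast-like cells. *Ltbp1* stood at 116 and 107 CPM there and at 49.1 and 60.0 CPM in chondrocyte-like cells, the next type. For *Ltbp2* the fibroblast-like level was 122 and 194 CPM, and fibroblast-like cells held 93.7% and 91.5% of its UMIs, the largest shares among the 10 genes. *Tgfbi*, which encodes a collagen-binding matrix protein, was shared by macrophage-like cells (333 and 469 CPM), lymphatic endothelial-like cells (339 and 284 CPM), fibroblast-like cells (209 and 211 CPM) and neutrophil-like cells (187 and 215 CPM).

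**Figure D1:**
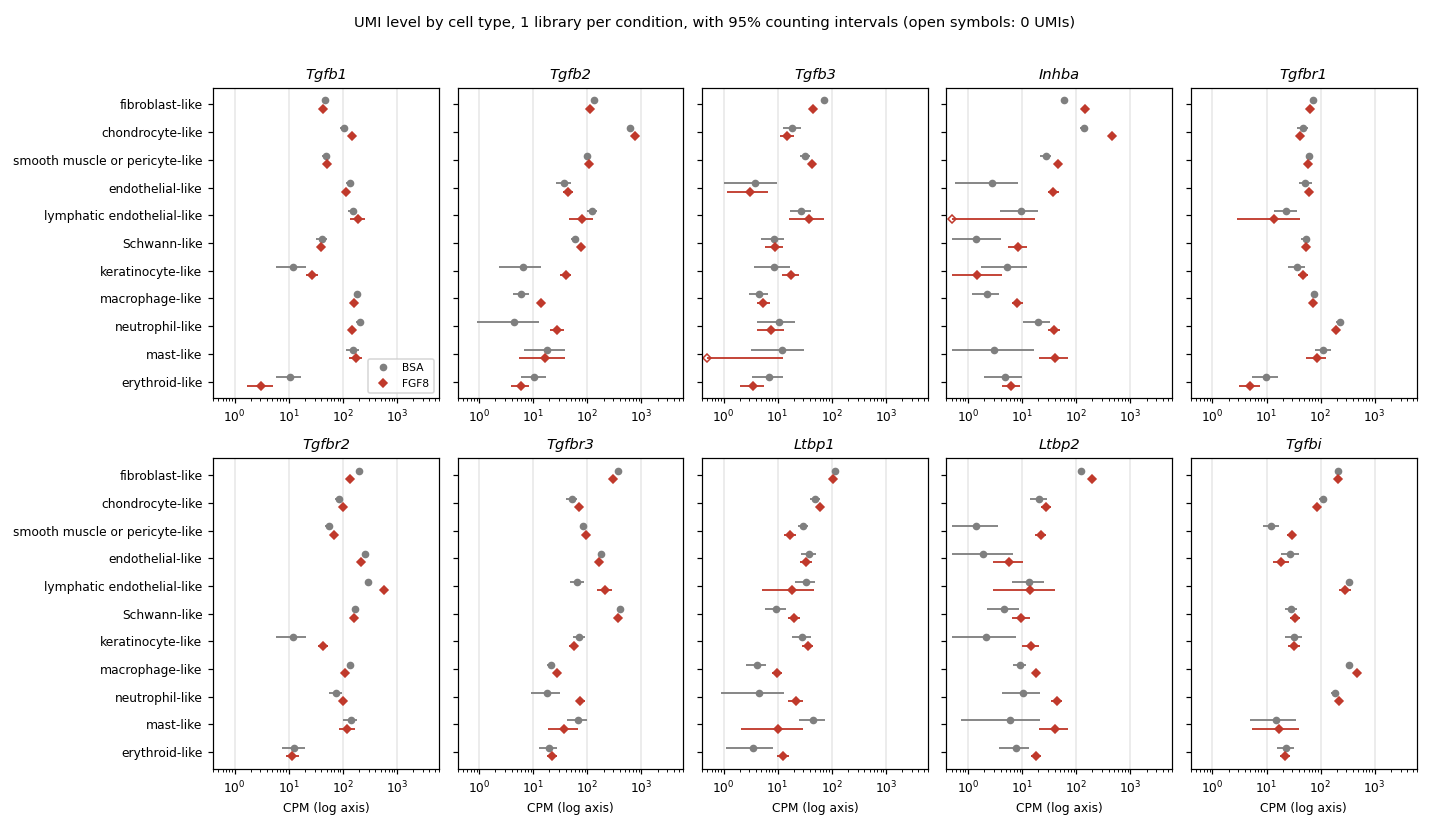
Levels of the 10 genes in each named cell type, as CPM on a log axis, for the BSA library (grey circles) and the FGF8 library (red diamonds), with bars for 95% Poisson counting intervals and open symbols where no UMI was found. *Tgfb2* peaks in chondrocyte-like cells (609 and 759 CPM), *Ltbp2* in fibroblast-like cells (122 and 194 CPM) and *Tgfbr1* in neutrophil-like cells (227 and 194 CPM).

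The question the pools were made for was how cells at the wound responded within 24 h of FGF8. In fibroblast-like cells 1 of the 10 genes, *Inhba*, had a log2 ratio above 1, beside 6.53% of the 19895 genes with at least 10 UMIs. None was below -1, beside 5.28% of those genes. Of the 10 genes, 7 lay below 0, beside 56.3% of all genes tested, and the median of the 10 was -0.14, beside -0.08 for all genes. Only *Inhba* thus passed a 2-fold difference, and the genes are described in turn.

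*Inhba* went from 58.4 CPM (2017 UMIs) in the BSA library to 146 CPM (9922 UMIs) in the FGF8 library, a 2.49-fold difference and a log2 ratio of 1.32 (1.25 to 1.39). The share of thinned cells with an *Inhba* UMI was 8.04% (Clopper-Pearson interval 6.72–9.53%) and 12.1% (10.9–13.3%), and without thinning it was 36.1% and 45.7%. In erythroid-like cells the thinned shares were 1.32% and 1.67%, of 76 and 478 cells, so the first stands for very few cells. The share of cells thus differed less than the level did. *Ltbp2* went from 122 CPM (4221 UMIs) to 194 CPM (13255 UMIs), a log2 ratio of 0.67 (0.62 to 0.72), with 18.0% and 24.7% of thinned cells. These were the only genes of the 10 with an interval wholly above 0.

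The ligand gene *Tgfb3* was lower in the FGF8 library, at 45.5 CPM (3099 UMIs) against 70.9 CPM (2451 UMIs), a log2 ratio of -0.64 (-0.72 to -0.56). *Tgfb2* stood at 111 against 135 CPM, with a ratio of -0.29 (-0.34 to -0.24), and *Tgfb1* at 43.3 against 45.9 CPM, with a ratio of -0.08 and an interval of -0.17 to 0.00. Among the receptor genes, *Tgfbr2* had the lowest ratio, -0.53 (-0.57 to -0.48), from 196 to 136 CPM. *Tgfbr3* followed at -0.32 (-0.35 to -0.29) and *Tgfbr1* at -0.16 (-0.23 to -0.09). *Ltbp1* had a ratio of -0.11 (-0.17 to -0.06). *Tgfbi* differed by less than its counting error, with 209 and 211 CPM and a ratio of 0.01 (-0.03 to 0.06). *Inhba* and *Ltbp2* were thus higher in the FGF8 library, and *Tgfb3* and *Tgfbr2* lower.

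**Figure D2:**
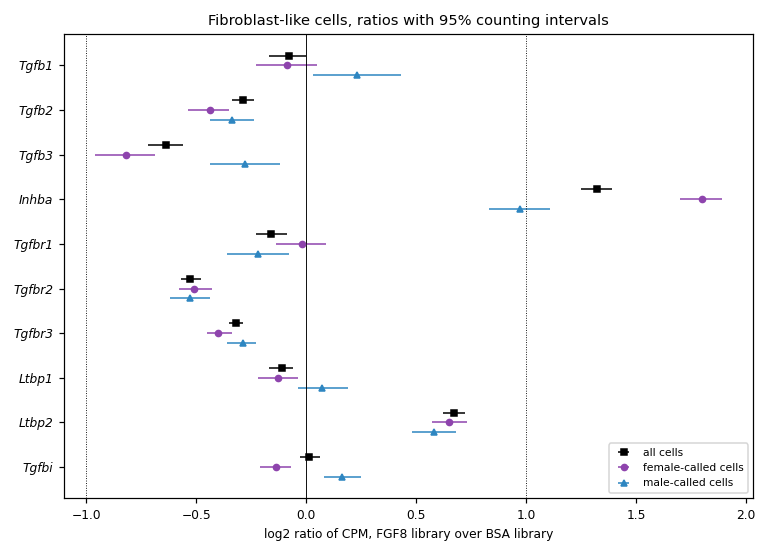
Log2 ratio of CPM, FGF8 library over BSA library, in fibroblast-like cells for all cells (black squares), female-called cells (purple circles) and male-called cells (blue triangles), with 95% counting intervals as bars and dotted lines at a 2-fold difference. *Inhba* is at 1.32, 1.80 and 0.97, *Ltbp2* at 0.67, 0.65 and 0.58, and *Tgfbi* at 0.01, -0.14 and 0.16.

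Female-called and male-called cells gave ratios on the same side of 0 for every gene except *Tgfb1*, *Ltbp1* and *Tgfbi*. The *Inhba* ratio was 1.80 (1.70 to 1.89) in female-called cells, from 1078 BSA and 606 FGF8 cells, and 0.97 (0.83 to 1.11) in male-called cells, from 272 and 1966 cells. The male-called value lies just under a 2-fold difference. *Ltbp2* was at 0.65 and 0.58 and *Tgfbr2* at -0.51 and -0.53, close to the values over all cells. For *Tgfb3* the ratio was -0.82 (-0.96 to -0.69) for female-called and -0.28 (-0.44 to -0.12) for male-called cells. *Tgfb1* was at -0.09 (-0.23 to 0.05) and 0.23 (0.03 to 0.43), and *Ltbp1* at -0.13 (-0.22 to -0.04) and 0.07 (-0.04 to 0.19). Whether the sexes differ in their response was not tested, since each sex has 1 library per condition.

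The *Inhba* difference was uneven over the subclusters. Subcluster 5 had by far the highest level, 710 CPM (127 UMIs) in 6 BSA cells and 3552 CPM (2847 UMIs) in 25 FGF8 cells, a log2 ratio of 2.32 (2.07 to 2.59). Of the 9 genes with at least 10 UMIs there, 3 were above 1, beside 13.6% of all genes tested, and 0 below -1, beside 9.42%. Above 0 were 7, beside 48.7%, and below 0 were 2, beside 51.3%. Its FGF8 cells held a median of 81 *Inhba* UMIs, with a range of 2 to 440, and its BSA cells a median of 25, with a range of 2 to 42, while the median of all other fibroblast-like cells was 0 in both libraries. These 25 cells were 0.862% of the FGF8 fibroblast-like cells and held 28.7% of their *Inhba* UMIs. In the BSA library the 6 cells were 0.397% and held 6.30%. Without subcluster 5, an alternative added after the data were seen, *Inhba* stood at 55.0 and 105 CPM, a log2 ratio of 0.93 (0.86 to 1.01), so that the gene no longer passed a 2-fold difference.

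Subcluster 5 had fewer fibroblast marker UMIs than the other fibroblast-like cells, 7190 against 32203 CPM in the BSA library and 5618 against 17472 CPM in the FGF8 library, summed over 8 genes. Its tenocyte markers summed to 106 and 150 CPM (BSA and FGF8), against 912 and 866 in the other fibroblast-like cells, and its smooth muscle or pericyte markers to 341 and 213 against 309 and 279. The erythroid marker sum of subcluster 5 was 140 CPM in the BSA library and 3718 in the FGF8 library, against 1486 and 1349 in the other fibroblast-like cells, and its part in the *Inhba* level was not tested. Sums of macrophage, endothelial, keratinocyte and mast cell markers were at most 50.3 CPM each. None of its cells was among those with the highest doublet scores (0 of 6 and 0 of 25). All of its sex-called BSA cells were female-called, which left no male-called comparison there. In female-called cells of the subcluster, 4 and 5 cells, *Inhba* was at 487 and 6171 CPM.

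In subcluster 0, the largest in the FGF8 library, *Inhba* was at 88.6 CPM (1008 UMIs) and 147 CPM (5746 UMIs), a ratio of 0.74 (0.64 to 0.83). There the sexes differed in value: 1.15 (1.03 to 1.28) in female-called cells and 0.11 (-0.07 to 0.30) in male-called cells. In subcluster 1 the ratio was 0.49 (0.31 to 0.67), but -0.21 (-0.58 to 0.14) for female-called and 1.03 (0.65 to 1.43) for male-called cells. Subcluster 2 had the lowest level, 9.47 and 20.7 CPM, with a ratio of 1.13 (0.70 to 1.57). The 2-fold difference there was not present in female-called cells, at 0.14 (-0.73 to 0.97), and was in male-called cells, at 1.15 (0.36 to 2.06). In tenocyte-like subcluster 3 the gene had 253 and 251 UMIs and a ratio of -0.18, and in subcluster 4 it stood at 204 and 215 CPM with a ratio of 0.07. Both intervals included 0.

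The 10% of fibroblast-like cells richest in *Inhba* held 78.9% (FGF8) and 68.2% (BSA) of its UMIs. The richest 1%, 29 and 15 cells, held 42.7% and 23.1%. For *Ltbp2* the richest 10% held 41.0% and 51.6%, and for *Tgfbr3* 33.2% and 32.4%. *Inhba* was thus the most concentrated of the 10 genes in both libraries, and its UMIs were more concentrated in the FGF8 library. Leaving out the 1% of cells of each library with the most *Inhba* UMIs gave a ratio of 0.89.

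**Figure D3:**
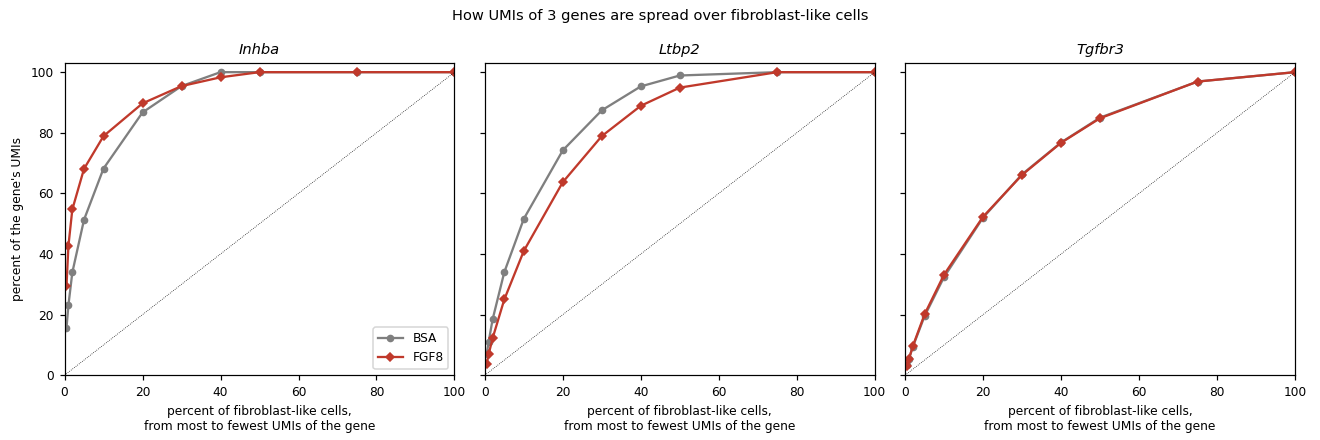
Percent of a gene's UMIs held by the richest cells, against the percent of fibroblast-like cells ranked from most to fewest UMIs of that gene, for *Inhba*, *Ltbp2* and *Tgfbr3* in the BSA library (grey circles) and the FGF8 library (red diamonds); the dotted diagonal stands for equal UMIs in every cell. The *Inhba* curves rise fastest, with 78.9% (FGF8) and 68.2% (BSA) of UMIs in the richest 10% of cells, against 33.2% and 32.4% for *Tgfbr3*.

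In subcluster 0 *Ltbp2* went from 117 CPM (1332 UMIs) to 221 CPM (8622 UMIs), a ratio of 0.92 (0.84 to 1.00). The female-called and male-called ratios there were 0.94 (0.83 to 1.05) and 1.07 (0.87 to 1.27). In subcluster 1 the gene went from 109 to 167 CPM with a ratio of 0.62, and in subcluster 2 from 133 to 163 CPM with a ratio of 0.29. In the tenocyte-like subcluster it was at 178 and 180 CPM, with a ratio of 0.02 (-0.12 to 0.16). Subcluster 4 had 7 and 14 *Ltbp2* UMIs, and subcluster 5 had 0 and 32.

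The ligand genes also differed between subclusters. *Tgfb3* was highest in the tenocyte-like subcluster, at 121 and 79.9 CPM with a ratio of -0.60 (-0.79 to -0.41), and had its lowest ratio among subclusters 0 to 3 in subcluster 0, with 941 and 1558 UMIs and -1.05 (-1.17 to -0.93). The *Tgfb3* ratio there was -1.17 (-1.36 to -0.97) for female-called and -0.63 (-0.89 to -0.35) for male-called cells, so the 2-fold difference was not present in the latter. *Tgfb3* was the one gene of the 10 below -1 in subcluster 0, beside 9.47% of all genes tested there, and 0 were above 1, beside 5.23%. Above 0 were 4, beside 45.1%, and below 0 were 6, beside 54.9%. In subcluster 1 *Tgfb3* was at 56.2 and 59.8 CPM, and the interval included 0. *Tgfb1* was lower in the FGF8 library in subcluster 0 (78.1 and 50.3 CPM, ratio -0.64, -0.75 to -0.52) and higher in subcluster 3 (25.7 and 37.1 CPM, ratio 0.53, 0.18 to 0.88). The *Tgfb1* value of subcluster 0 was -0.60 (-0.77 to -0.42) for female-called and 0.04 (-0.26 to 0.35) for male-called cells, the latter from 58 BSA cells. *Tgfb2* likewise stood at -0.58 (-0.66 to -0.49) in subcluster 0 and at 0.31 (0.17 to 0.44) in subcluster 3, where its level was highest (175 and 217 CPM). The *Tgfb2* ratio of subcluster 0 was -0.63 for female-called and -0.66 for male-called cells.

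The ratios of the receptor genes changed with the weight given to each subcluster. Whether the subcluster shares differ by the make-up of the tissue or by the state of its cells was not tested. Subcluster 0 was 25.5% of fibroblast-like cells in the BSA library and 41.3% in the FGF8 library, and subcluster 1 was 42.6% and 30.7%. *Tgfbr3* was at 148 and 178 CPM in subcluster 0 and at 594 and 554 CPM in subcluster 1. Within subclusters its ratio was 0.26 (subcluster 0), -0.10 (subcluster 1), 0.13 (subcluster 2) and -0.11 (subcluster 3), each with an interval on one side of 0, while over all fibroblast-like cells it was -0.32. With the FGF8 library weighted to the subcluster shares of UMIs in the BSA library, the *Tgfbr3* ratio was 0.01. *Tgfbr2* was at 106 and 79.5 CPM in subcluster 0 and between 192 and 281 CPM in subclusters 1 to 3. Its ratio was -0.42 in subcluster 0, between -0.20 and -0.21 in subclusters 1 to 3, and -0.23 with the weighted shares, against -0.53 unweighted. With the weighted shares *Inhba* stood at 0.76. *Tgfbr1* stood apart in subcluster 4, at 206 and 216 CPM, and the other subclusters lay between 46.2 and 83.9 CPM. The subclusters were built without the genes the study listed as differing between conditions, but with 1 library per condition a shift in their shares has no replicate check.

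*Tgfbi* differed in opposite directions within the fibroblast-like cells. It was lower in the FGF8 library in subcluster 0, at 267 and 203 CPM (-0.39, -0.45 to -0.33), and higher in subcluster 1 (0.22, 0.13 to 0.30), subcluster 2 (0.58, 0.45 to 0.72) and subcluster 3 (0.28, 0.18 to 0.37). *Ltbp1* was at 0.18 (0.08 to 0.28) in subcluster 0 and at -0.30 (-0.41 to -0.19) in subcluster 1.

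**Figure D4:**
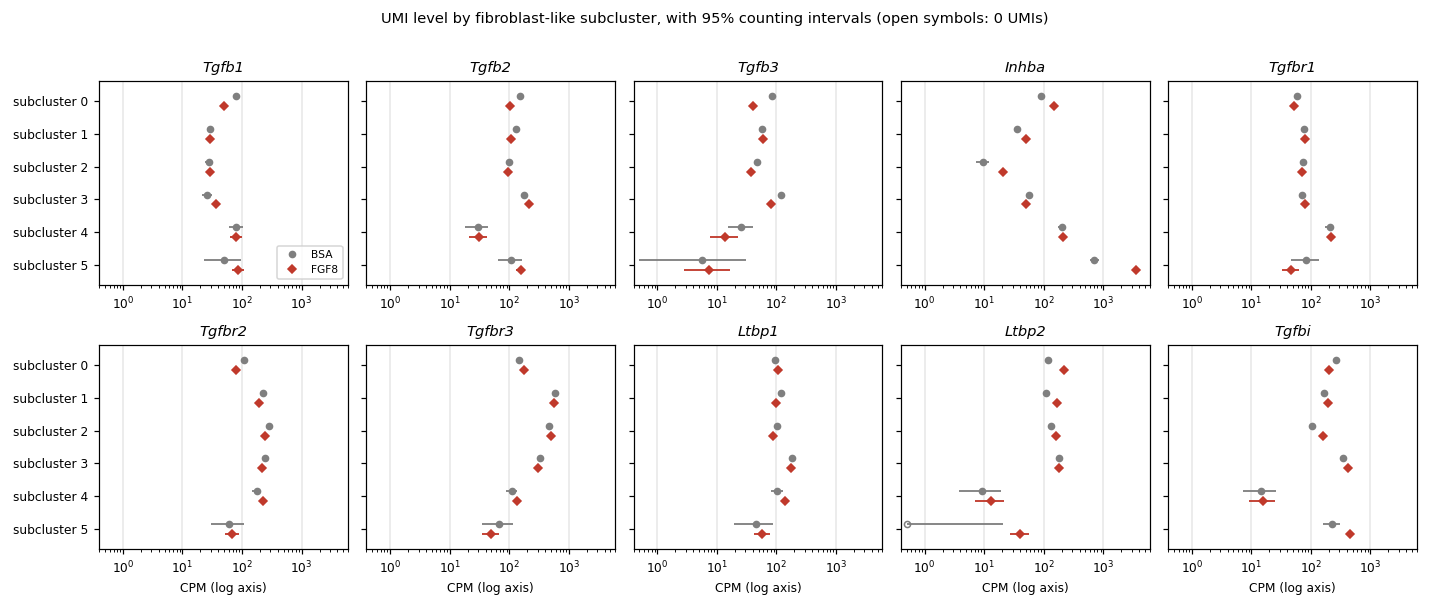
Levels of the 10 genes in fibroblast-like subclusters 0 to 5, as CPM on a log axis, for the BSA library (grey circles) and the FGF8 library (red diamonds), with 95% Poisson counting intervals as bars and open symbols where no UMI was found. *Inhba* in subcluster 5 is at 710 and 3552 CPM, *Tgfbr3* is at 148 and 178 CPM in subcluster 0 and 594 and 554 CPM in subcluster 1, and *Tgfbr1* is highest in subcluster 4 (206 and 216 CPM).

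Outside the fibroblast-like cells, chondrocyte-like cells (55 and 137) also differed in *Inhba*. It went from 137 CPM (221 UMIs) to 464 CPM (1492 UMIs), 3.38-fold, with a log2 ratio of 1.76 (1.55 to 1.97). The ratio was 1.87 (1.61 to 2.13) for female-called and 1.33 (0.91 to 1.78) for male-called cells. All male-called values of this type rested on 11 BSA and 81 FGF8 cells. *Inhba* was the only one of the 10 genes above 1 in chondrocyte-like cells, beside 11.0% of all genes tested there, and 0 were below -1, beside 5.81%. Above 0 were 7, beside 47.6%, and below 0 were 3, beside 52.4%. The thinned share of chondrocyte-like cells with an *Inhba* UMI was 16.4% and 24.8%. *Tgfb2* was at 0.32 (0.21 to 0.43), the opposite side of 0 from fibroblast-like cells, with 0.37 for female-called and 0.38 for male-called cells. *Tgfb1* stood at 105 and 148 CPM with a ratio of 0.49 (0.24 to 0.75). *Tgfbi* was at 109 and 86.5 CPM with a ratio of -0.33 (-0.61 to -0.05), and at -1.37 (-1.89 to -0.87) for female-called and 0.09 (-0.49 to 0.73) for male-called cells. The summed erythroid marker level in chondrocyte-like cells was 118 CPM in the BSA library and 2340 CPM in the FGF8 library. Macrophage markers there summed to 8.08 and 163 CPM, and the chondrocyte markers themselves to 50472 and 36756 CPM. The part of these differences in the values above was not tested.

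In macrophage-like cells *Tgfbi* went from 333 CPM (1943 UMIs) to 469 CPM (4799 UMIs), a ratio of 0.49 (0.42 to 0.57), and the thinned share of cells from 37.7% to 50.1%, against 3.95% and 3.35% of erythroid-like cells. The ratio was 0.73 for female-called and 0.73 for male-called cells, both above the value over all cells. *Tgfbr2* was at 138 and 108 CPM, with a ratio of -0.35 (-0.48 to -0.22), and *Tgfb1* at 185 and 163 CPM, with -0.19 (-0.30 to -0.08). The 3 genes above 1 in macrophage-like cells, beside 7.41% of all genes, were *Inhba*, *Tgfb2* and *Ltbp1*, each at 14.0 CPM or less in both libraries. None was below -1, beside 3.44%, 7 were above 0, beside 55.1%, and 3 below 0, beside 44.9%. In smooth muscle or pericyte-like cells *Ltbp2* went from 1.39 CPM (4 UMIs) to 22.2 CPM (81 UMIs), a ratio of 4.00 (2.59 to 5.91). Erythroid-like cells had *Ltbp2* at 7.65 and 18.4 CPM, so the FGF8 level lay near that of cells that should lack the transcript. *Tgfb3* in the same type went from 31.9 to 43.4 CPM, a ratio of 0.44 (0.06 to 0.83), and *Inhba* had a ratio of 0.77 (0.37 to 1.17). The *Inhba* ratio was 1.29 (0.76 to 1.83) for female-called and 2.22 (1.04 to 3.70) for male-called cells, the latter on 6 and 90 UMIs. Both lay above the *Inhba* ratio over all cells of the type. Of its sex-called cells, 77.6% and 27.8% were female-called, and the part of sex in that ratio was not tested. The *Tgfb3* ratio was 1.02 (0.45 to 1.58) for female-called and 0.20 (-0.46 to 0.92) for male-called cells. Erythroid markers summed to 930 and 2969 CPM in smooth muscle or pericyte-like cells, and their part was not tested. Over all cells of the type, *Ltbp2* and *Tgfbi* were the 2 genes above 1, beside 5.36% of all genes, and 0 were below -1, beside 2.49%. Above 0 were 8, beside 52.5%, and below 0 were 2, beside 47.5%. In endothelial-like cells *Inhba* had 3 and 73 UMIs, or 2.84 and 37.9 CPM, a ratio of 3.74 (2.13 to 6.05). Female-called endothelial-like cells had 2 and 14 *Inhba* UMIs and male-called cells had 1 and 7. Most of the 73 FGF8 UMIs thus lay in endothelial-like cells that could not be called for sex. With each cell weighted equally, the *Inhba* level was 2.35 and 21.9 CPM. Chondrocyte markers summed to 41.7 and 274 CPM in endothelial-like cells and erythroid markers to 3837 and 12023 CPM, and their part in the *Inhba* value was not tested.

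The rest of the pathway was read from the list of 69 genes, and 67 of these reached 10 UMIs in fibroblast-like cells. *Tdgf1* had no UMI in these cells, and *Inhbe* had 1 and 2. Of the 67, 3 were above 1 and 3 below -1, beside 6.53% and 5.28% of all genes. Above 0 were 23, beside 43.7% of all genes, and below 0 were 44, beside 56.3%. The median of the list was -0.18, beside -0.08 for all genes.

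Among the secreted antagonists and binders, follistatin (*Fst*) had the highest ratio, 1.41 (1.36 to 1.47), from 80.4 CPM (2780 UMIs) to 214 CPM (14618 UMIs). The other 5 genes of that role were below 0. *Aspn* and *Fmod*, small leucine-rich proteoglycans that bind TGF-beta, were at -1.10 (1665 and 777 CPM) and -1.12 (133 and 61.2 CPM). *Fstl3*, a relative of follistatin, was at -0.40. In male-called cells, 4 genes of the whole list were above 1 and 0 below -1, beside 6.47% and 6.48% of all genes tested there. The calls below -1 thus ended in those cells. *Fst* and *Inhba*, the antagonist and the ligand it binds, were both higher in the FGF8 library, with unlike values over the subclusters. *Fst* was at 58.4 and 265 CPM in subcluster 0, a ratio of 2.18 (2.07 to 2.30), against 0.74 for *Inhba*. In subcluster 5, where *Inhba* reached 3552 CPM, *Fst* had 2 and 12 UMIs. Subcluster 4 had the highest *Fst* level of the subclusters, 1194 and 968 CPM, and Schwann-like cells stood at 743 and 599 CPM. The ratios there were -0.30 and -0.31.

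Of the 9 receptor and co-receptor genes on the list, 8 reached 10 UMIs, of which 3 were above 0 and 5 below, beside 43.7% and 56.3% of all genes, with a median of -0.30. The activin type I receptor gene *Acvr1b* was at 0.61 (0.40 to 0.82), on 7.29 and 11.1 CPM, and the type II genes *Acvr2a* and *Acvr2b* were at -0.37 and -0.43. The 14 genes for SMAD proteins and their regulators had a median of -0.06. *Smad7*, which encodes the inhibitory SMAD and is itself induced by the pathway, was at 0.97 (0.92 to 1.03), from 92.3 to 181 CPM. Its ratio lay between 0.50 and 0.88 in subclusters 0, 1, 2, 3 and 5, and at 0.37 with an interval that included 0 in subcluster 4. *Smad2* was at -0.05 (-0.12 to 0.03), *Smad3* at -0.32 and *Smad4* at -0.25. In chondrocyte-like cells *Smad7* was already at 325 CPM in the BSA library and at 332 in the FGF8 library.

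Of the 16 target genes, 5 were above 0 and 11 below, beside 43.7% and 56.3% of all genes, with a median of -0.20. *Cdkn2b*, a cell cycle inhibitor gene, was at 2.18 (1.91 to 2.45), from 3.65 CPM (126 UMIs) to 16.5 CPM (1123 UMIs). Subcluster 0 held 95 of those 126 and 1040 of those 1123 UMIs. *Ccn2* was at -0.14. *Col1a1* was at -1.11, from 13234 to 6149 CPM, the one target gene below -1. It is also among the 8 fibroblast markers, which summed to 32074 CPM (BSA) and 17332 CPM (FGF8) in fibroblast-like cells. No gene of the list was below -1 in male-called cells or with a stricter cell filter. Of the 7 genes of latency and storage, 2 were above 0 and 5 below, with ratios up to 0.75, and of the 11 genes of release, 5 were above 0 and 6 below, with ratios up to 0.96 and a median of -0.03. Among the genes named from these roles, *Ltbp3* was at -0.56, *Ltbp4* at -0.39 and *Thbs1* at -0.18, and none of these roles had a gene past a 2-fold difference. *Inhbb*, the other common activin subunit gene, was at 9.98 and 8.98 CPM with a ratio of -0.15 (-0.35 to 0.04). The remaining gene above 1 was *Inhbc*, on 1 and 14 UMIs (2.83, 0.11 to 8.23).

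**Figure D5:**
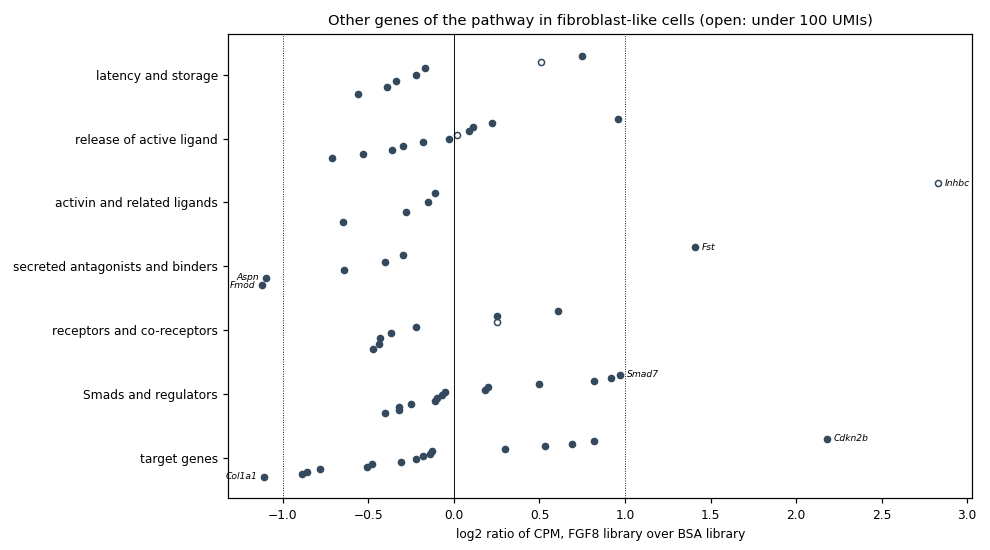
Log2 ratio of CPM, FGF8 library over BSA library, in fibroblast-like cells for the 67 pathway genes with at least 10 UMIs, 1 point a gene, grouped by role, with open points under 100 UMIs and dotted lines at a 2-fold difference. *Cdkn2b* (2.18) and *Fst* (1.41) lie above the upper line, with *Inhbc* (2.83), and *Fmod* (-1.12), *Col1a1* (-1.11) and *Aspn* (-1.10) below the lower line.

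In chondrocyte-like cells 59 of the 69 genes had at least 10 UMIs, of which 5 were above 1 and 7 below -1, beside 11.0% and 5.81% of all genes. *Ltbp3* was at 41.7 and 133 CPM there, a ratio of 1.68 (1.31 to 2.07), against -0.56 in fibroblast-like cells. *Cdkn2b* had 1 and 66 UMIs, a ratio of 5.05 (2.52 to 10.37).

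Across the 11 named cell types in both libraries, 22 points in all, the genes whose levels followed each of the 10 most closely were found by Pearson's r of log2(CPM + 1). The points share libraries and pools, and r is a description. *Tgfb1* was followed by *Arhgef1* (0.932), *Tgfbr1* by *Rapgef6* (0.954), *Tgfbr2* by *Eml6* (0.958) and *Tgfbr3* by *Nbea* (0.923). *Inhba* was most like *Ccdc80* (0.847), *Dlk1* and *Timp1* (0.838 each), and *Ltbp2* most like *Prg4* (0.867), the lubricin gene, *Tnn* (0.864) and *Sfrp2* (0.837). *Tgfb3* was nearest to *Nfix* (0.875), *Ltbp1* to *Robo1* (0.822) and *Tgfbi* to *Arsb* (0.848). *Tgfb2* was nearest to *Samd4* (0.938), then *Tmem263* (0.906) and *Gm35546* (0.897).

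*Gm35546* is annotated on the opposite strand over part of *Tgfb2*, at chr1:186316434-186393718, with *Tgfb2* at chr1:186354985-186438294 on the minus strand (GRCm39). It had 437 UMIs in the kept BSA cells and 942 in the kept FGF8 cells. The study counted with the default parameters of Cell Ranger and names no strand setting. Whether reads of the pair were fully told apart was not checked. *Inhba* lies at chr13:16186373-16206206 on the plus strand, and the listed genes that overlap it on the other strand, *4933412O06Rik* and *Gm48444*, had 10 and 2 UMIs in the BSA library and 13 and 7 in the FGF8 library. Of the 10 genes, 8 overlap another annotated gene, and none overlaps a listed gene on its own strand.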

How the data were processed

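Single-cell libraries (10x Genomics 3′ v3.1) were made from 1 pool of digits per condition. The deposited matrices hold raw UMI counts per gene and cell, made by the authors with Cell Ranger 9.0.0. The submitters' notes name GRCm39 and mm10 without a role, while the study's methods name a GRCm39 reference for the counting. Gene identifiers were placed on GRCm39. Columns of other samples numbered 0.

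Cells with more than 200 and fewer than 7500 genes and under 15% mitochondrial UMIs were kept. Counts were merged, normalized with SCTransform and integrated by CCA in Seurat 5.3.0 (sctransform 0.4.2, R 4.3.3, 30 components, resolution 0.05, seed 42), leaving the 10 genes, the pathway list and sex-linked genes out of the features. Fibroblast-like and unnamed clusters were re-clustered at resolution 0.2. For the fibroblast-like cells the genes that the study listed as differing between conditions were also left out. A cluster was named from its best marker list with at least 3 markers in 10% of cells, a mean log2 fold of at least 1 and an own marker among its leading 10 genes. Part of this rule was set after the data were seen, and differences from the study's cell types may come from these rebuilt names. Sex was called from a UMI of *Xist* with no Y-linked UMI, or the reverse. Scrublet (scanpy 1.11.5) marked 0 barcodes as doublets in both libraries, so it did not work at its own threshold, and doublets were kept. An alternative left out the highest scores, 110 BSA and 420 FGF8 barcodes.

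For each library and cell type, UMIs were added up. Intervals were exact Poisson, Clopper-Pearson for shares and exact conditional for ratios, all at 95% (Python 3.11.15, numpy 2.4.6, scipy 1.17.1, pandas 2.3.3). The coverage of the ratio intervals was tested only on simulated Poisson counts, the model that they assume. That test cannot show whether they cover the spread between cells or animals. Ratios needed at least 10 UMIs over both libraries, and a gene with no UMI in a library entered at 3 counts. Shares of cells used cells thinned to 2000 UMIs. With 1 library per group no test was run. All 10 genes were named. Pathway genes were named if they had at least 100 UMIs and a log2 ratio of at least 1 in size, or from a short list of SMAD, activin receptor and target genes named whatever their values. One gene of that list is not reported here. *Inhbc*, *Inhbe*, *Tdgf1* and *Cdkn2b* in chondrocyte-like cells were added after values were seen. The 10 genes and the lists were chosen with earlier results of these data known. Alternatives covered the cell filter, integration, features, per-cell naming, equal weights, thinning to 5000 UMIs, each sex, median centring, doublet scores, subcluster shares, the richest 1% of cells and the minimum of UMIs. Leaving out subcluster 5 was added after the data were seen.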

Additional observations from a re-analysis of the deposited data

Results flagged for a closer look

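The values in this paragraph are log2 ratios, FGF8 library over BSA library, that lay on opposite sides of 0 in 2 groups of cells with both intervals clear of 0. None of these differences was tested, since each group of cells has 1 library per condition. Between sexes, *Tgfbi* in fibroblast-like cells was at -0.14 for female-called and 0.16 for male-called cells. In subcluster 2, *Tgfb3* was at -0.86 (female-called) and 0.53 (male-called). In tenocyte-like subcluster 3, *Inhba* was at 0.59 and -0.73 and *Tgfbr3* at -0.44 and 0.24, in the same order, with 28 male-called BSA cells.

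Against fibroblast-like cells, where *Tgfb2* was at -0.29, it was at 0.32 in chondrocyte-like, 0.35 in Schwann-like and 1.22 in macrophage-like cells. *Tgfb3* was at 0.44 in smooth muscle or pericyte-like cells, against -0.64. *Tgfbr2* was at 0.98 in lymphatic endothelial-like cells, with 11 FGF8 cells, and at 0.47 in neutrophil-like cells, against -0.53. Within sexes, female-called first, *Tgfbr2* was at 0.66 and -0.83 in lymphatic endothelial-like cells, where both intervals included 0, and at 1.77 and 0.01 in neutrophil-like cells, and *Tgfb2* in Schwann-like cells at -0.03 and 1.26. Erythroid markers in neutrophil-like cells summed to 41997 CPM (BSA) and 7975 CPM (FGF8), and their part was not tested. *Tgfbr3* was at 0.44 in chondrocyte-like, 0.37 in macrophage-like and 2.07 in neutrophil-like cells, against -0.32. *Ltbp1* was at 1.25 in macrophage-like cells, against -0.11. Thinned shares of macrophage-like cells with a UMI in the BSA and FGF8 libraries were 0.477% and 2.14% for *Tgfb2*, 2.63% and 4.05% for *Tgfbr3* and 0.477% and 1.31% for *Ltbp1*. In erythroid-like cells they were 1.32% and 0.628% for *Tgfb2*, 6.58% and 2.51% for *Tgfbr3*, and 0% and 2.30% for *Ltbp1*. The shares come from 419 and 840 macrophage-like and 76 and 478 erythroid-like cells, so the smallest stand for very few cells. Their order is a description only. In the BSA library the macrophage-like share was below the erythroid-like share for *Tgfb2* and *Tgfbr3* and above it for *Ltbp1*. In the FGF8 library it was above for *Tgfb2* and *Tgfbr3* and below for *Ltbp1*. The part of background in these shares was not tested.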

How the results depend on the processing

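*Inhba* was the 1 gene of the 10 past a 2-fold difference in fibroblast-like cells. The count was 0 in male-called cells, at the subcluster shares of the BSA library and without subcluster 5, and 1 under the other 9 alternatives counted. Leaving out the richest 1% of cells, done gene by gene, was not part of that count. It put *Inhba* at 0.89, also under a 2-fold difference. Its ratio lay between 0.76 (BSA subcluster shares) and 1.80 (female-called cells). Of the pathway list 6 genes passed. The count was 3 with the stricter cell filter, with each cell weighted equally, after thinning to 5000 UMIs and at the BSA subcluster shares, each with 3 above 1 and 0 below -1, and 11 in female-called cells (6 above and 5 below). It was between 4 and 8 otherwise. Of all genes tested, 6.07% were above 1 and 7.88% below -1 in female-called cells. Where the count was 3, those shares lay at 5.54% to 7.02% and 3.05% to 4.13%. Under the other settings they lay at 6.30% to 7.30% and 4.47% to 6.48%. For a changed minimum of UMIs the shares were not computed. Ratios changed sign for *Tgfbr3* (0.01) and *Tgfbr1* (0.00) at the BSA subcluster shares and for *Ltbp1* (0.07) in male-called cells. *Tgfb1* and *Tgfbi*, whose intervals reached 0, also changed side: *Tgfb1* to 0.09 (stricter filter), 0.11 (thinned to 5000 UMIs) and 0.23 (male-called), *Tgfbi* to -0.14 (female-called) and to just under 0 without subcluster 5. The cause was not tested, except that the weighting by construction changes only the subcluster shares. Ratios of *Ltbp2* (0.50 to 0.75), *Tgfb2* (-0.44 to -0.07), *Tgfb3* (-0.82 to -0.28) and *Tgfbr2* (-0.54 to -0.23) kept their side of 0 under all 13 alternatives. With each cell weighted equally, the leading type of each gene was the same in 18 of 20 orders. Shares of cells with a UMI depend on depth: for *Inhba* they were 16.3% and 21.5% after thinning to 5000 UMIs. No paired analysis was possible because the groups share fewer than 2 replicate numbers. With 1 library per condition, the spread between animals is unknown.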

Other observations

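Cells that could not be named also held these transcripts. The largest such group, 192 BSA and 384 FGF8 cells led by *Lars2* and *Camk1d*, had a median of 2761.5 and 2578 UMIs. *Tgfbr3* stood there at 698 CPM (BSA) and 778 CPM (FGF8), above the levels in every named cell type. *Ltbp2* was at 142 and 344 CPM, a log2 ratio of 1.27 (1.00 to 1.55), *Inhba* at 53.7 and 116 CPM, a ratio of 1.12 (0.67 to 1.59), and *Tgfb2* at 126 and 235 CPM, a ratio of 0.90 (0.60 to 1.21). *Tgfbr2* was at 329 and 244 CPM, a ratio of -0.43 (-0.65 to -0.21). For *Inhba*, *Ltbp2* and *Tgfbr2* the ratio lay on the same side of 0 as in fibroblast-like cells, and for *Tgfb2* on the other side.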
